A study of Mus musculus with 12 samples.

Results

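The G1 phase of the cell cycle ends when a small set of cyclins, kinases and inhibitors allows DNA synthesis, and the RNA of 10 genes of this set was measured in 3T3-L1 cells with and without PRMT1 knockdown. The genes were taken by name: the D-type cyclins Ccnd1, Ccnd2 and Ccnd3, the kinases Cdk4 and Cdk6, the inhibitors Cdkn1a, Cdkn1b, Cdkn2b and Cdkn2c, and the retinoblastoma gene Rb1. All 10 were found among the 39423 genes of the count table, and all 10 passed the filter on low counts in each of the 5 comparisons made.

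3T3-L1 is an established mouse preadipocyte line that becomes adipocytes under DMI, a mixture of dexamethasone, a phosphodiesterase inhibitor and insulin that the sample labels call MDI. Cells received control siRNA (NC in the labels, siCtrl here) or siRNA against the arginine methyltransferase PRMT1 (KD in the labels, siPRMT1 here), and mRNA libraries were sequenced after 24 hours (day 1) or 72 hours (day 3) of DMI. Each of the 4 groups held 3 libraries, and none of the 12 libraries was from cells without DMI. The silencing is transient and partial, and which PRMT1 siRNA was used for sequencing is not named in the sources used here. The labels do not say whether replicates were separate cultures, so the p-values measure only the spread between these libraries, which may be technical.

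In G1, D-type cyclins bind CDK4 or CDK6, and the complex phosphorylates the retinoblastoma protein, which then releases E2F factors that switch on genes for DNA synthesis. INK4 inhibitors, such as p15 (Cdkn2b) and p18 (Cdkn2c), bind CDK4 and CDK6 themselves, whereas the CIP/KIP inhibitors p21 (Cdkn1a) and p27 (Cdkn1b) bind cyclin-kinase complexes. Confluent 3T3-L1 cultures are known to divide again for a short time once DMI is added (mitotic clonal expansion), before their cells stop dividing for good and store lipid.

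The libraries held 15116462 to 42357137 counts, and Prmt1 itself served as the check of the labels. Prmt1 stood at 82.9, 83.4 and 91.3 FPKM in the siCtrl libraries of day 1 and at 43.8, 38.6 and 41.4 FPKM in the siPRMT1 libraries. At day 3 it stood at 110.6, 120.4 and 140.2 FPKM in siCtrl and at 62.0, 71.7 and 68.5 FPKM in siPRMT1 libraries. The groups did not overlap on either day, and the log2 fold change was -1.11 ± 0.08 (SE) at day 1 and -0.88 ± 0.09 at day 3. FPKM corrects counts for gene length and depth, so that levels of different genes can be compared. Summed FPKM of 9 adipocyte markers at day 1 was 158 to 165 in siCtrl and 118 to 133 in siPRMT1 libraries, and 2911 to 3124 and 2250 to 2451 at day 3. Of these markers 4 were called lower under knockdown on each day, against 1.61% of all genes at day 1 and 3.80% at day 3. None was called higher, and Adipoq was not tested at day 1. The sum of 8 preadipocyte and fibroblast markers was 1354 to 1404 and 1279 to 1308 FPKM at day 1, and 485 to 518 and 596 to 676 FPKM at day 3, in the same order. Of these 8, 2 were called higher under knockdown at day 3, Pdgfra (0.60) and Ly6a (0.96), against 2.84% of all genes. None was called lower on either day, and none was called higher at day 1. The part of these marker differences in the results for the cell cycle genes was not tested, and in bulk RNA fewer cells of a type cannot be told apart from less RNA per cell. Of the markers of other cell types, all 4 of endothelium (Pecam1, Cdh5, Kdr, Tek), 4 of 5 of leukocytes (all but Cd68), 3 of 4 of muscle (all but Des) and 2 of 4 of epithelium (Epcam, Cdh1) were under 1 FPKM in all 12 libraries, as was Cd34 of the preadipocyte list. At day 3 the epithelial sum was 11 to 11.4 FPKM in siCtrl and 6.36 to 6.64 in siPRMT1 libraries, and the muscle sum 6.32 to 6.53 and 3.54 to 4 FPKM. Under knockdown at day 3, the keratin genes Krt8 (-0.70) and Krt18 (-1.29), Des (-0.77) and the low Cdh5 were called lower, and the part of these markers in the results was not tested either. The leukocyte sum was 1.76 to 2.86 and the endothelial sum 0.12 to 0.88 FPKM over the 12 libraries. Libraries of siCtrl day 1 stood furthest apart: replicate 3 had a median absolute log2 difference of 0.218 from the other 2, against 0.053 to 0.141 for the rest of the 12 libraries. For the cell cycle genes taken by name, test results that rest on that library are given with and without it. Results for the markers and for the further gene lists below are given with that library only, so their dependence on it is not shown.

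The promoters of 3 inhibitors are shown because their RNA moved most between the days, Cdkn1b and Cdkn2b downwards and Cdkn1a upwards. RefSeq promoter windows on GRCm38.p6 (250 bases before the start site and 50 from it on) were held for 7 of the 10 genes, namely Ccnd3, Cdk4, Cdk6, Cdkn1a, Cdkn1b, Cdkn2b and Cdkn2c. Capitals mark, on either strand, TGACG (the core of a cAMP response element, CRE), CCAAT, the GC box GGGCGG, and the fixed letters of CATGNNNNNNCATG, a pair of p53 half-sites. The sequences run 5′ to 3′ on the strand of the gene, Cdkn1b at chr6:134920151-134920450 (+), Cdkn2b at chr4:89310983-89311282 (-) and the upstream start of Cdkn1a at chr17:29090729-29091028 (+).
Cdkn1b: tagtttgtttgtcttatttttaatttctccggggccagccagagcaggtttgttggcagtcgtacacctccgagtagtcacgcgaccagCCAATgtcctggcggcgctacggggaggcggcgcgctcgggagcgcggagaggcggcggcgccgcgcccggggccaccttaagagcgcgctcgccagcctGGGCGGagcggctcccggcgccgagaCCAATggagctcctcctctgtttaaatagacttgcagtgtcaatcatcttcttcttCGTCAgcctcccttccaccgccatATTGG
Cdkn2b: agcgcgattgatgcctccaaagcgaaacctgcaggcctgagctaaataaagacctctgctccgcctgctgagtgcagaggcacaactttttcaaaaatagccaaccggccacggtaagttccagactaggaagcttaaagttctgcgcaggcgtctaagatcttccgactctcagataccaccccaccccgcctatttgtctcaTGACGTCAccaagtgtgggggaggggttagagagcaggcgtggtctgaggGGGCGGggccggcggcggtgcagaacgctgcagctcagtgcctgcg
Cdkn1a: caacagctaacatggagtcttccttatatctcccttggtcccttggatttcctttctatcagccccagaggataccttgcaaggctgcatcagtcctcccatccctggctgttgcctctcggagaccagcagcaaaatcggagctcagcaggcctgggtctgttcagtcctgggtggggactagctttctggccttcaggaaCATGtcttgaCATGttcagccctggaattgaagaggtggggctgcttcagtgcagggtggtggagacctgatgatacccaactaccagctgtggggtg
The Cdkn2b window held the full 8-letter CRE TGACGTCA, starting 46 bases before the start site, which overlaps TGACG on both strands. That motif stood in 1.80% of the 32544 different windows of all genes, while TGACG alone stood in 20.9%. The Cdkn1b window held 3 CCAAT boxes, a motif found in 37.4% of windows, with 1 TGACG and 1 GC box (35.9% of windows). The Cdkn1a window held the p53 pair, which 0.624% of windows held, and none of the other capitals. A second Cdkn1a window, at a start further downstream (chr17:29093519-29093818), held 2 GC boxes and no p53 pair, and it is not printed. Neither of the E2F letters TTTCCCGC (1.08% of windows) and TTTGGCGC (0.519%) was found in any of the 10 windows of these genes, and the matches are descriptions of letters, not of binding.

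**Figure D1:**
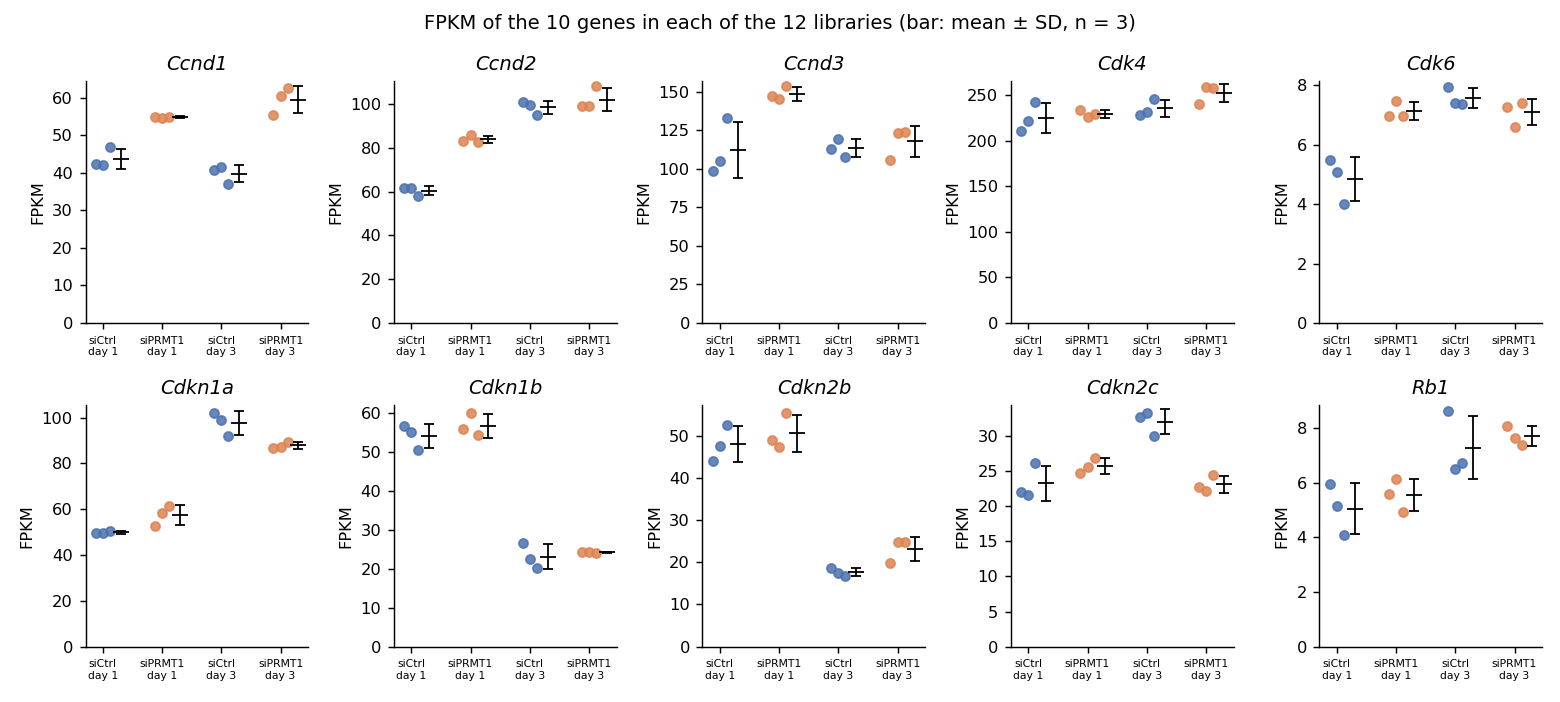
FPKM of each of the 10 genes (vertical axes, each from 0) in the 12 libraries, grouped by siRNA and day, with 1 point per library and the mean ± SD (n = 3) beside the points. Cdkn1b and Cdkn2b drop from day 1 to day 3 under both siRNAs, Cdkn1a climbs, and Ccnd1 is higher in all siPRMT1 than in all siCtrl libraries.

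The levels of the genes kept a wide span in every group. Cdk4 ranged from 210.2 to 259 FPKM, and Cdk6, its close relative, from 4.02 to 7.95 FPKM. Group means of the Cdk4 to Cdk6 ratio were 47.5 ± 11.5 (SD, n = 3) for siCtrl and 32.2 ± 1.8 for siPRMT1 on day 1, and 31.1 ± 2.3 and 35.7 ± 3.2 at day 3. Over the siCtrl libraries of day 1 the ratio was 38.4, 43.6 and 60.4, the last in replicate 3. The order in siCtrl cells at day 1 was Cdk4, Ccnd3, Ccnd2, Cdkn1b, Cdkn1a, Cdkn2b, Ccnd1, Cdkn2c, Rb1 and Cdk6. In that order, neighbours overlapped in FPKM for Cdkn1a with Cdkn2b, Cdkn2b with Ccnd1, and Rb1 with Cdk6. Cdkn1a is placed by its main entry alone. Its second copy, described below, averaged 16.6 FPKM in siCtrl cells at day 1 and 29.0 FPKM at day 3, and would raise its level. At day 3 Cdkn1a had moved up to a level that overlapped Ccnd2, and Cdkn1b and Cdkn2b stood below Ccnd1 and Cdkn2c in siCtrl cells. In siPRMT1 cells of day 3 the ranges of Cdkn1b, Cdkn2b and Cdkn2c overlapped from one neighbour to the next. Of the 11239 genes that averaged 1 FPKM or more over the 12 libraries, Cdk4 lay above 98.1%, Ccnd3 above 95.3%, Ccnd2 above 92.3%, Cdk6 above 33.6% and Rb1 above 32.6%.

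The first comparison asked which of these genes PRMT1 knockdown changed at each day, with a test on counts (edgeR's quasi-likelihood test, adjusted over all genes tested). A gene is said to pass the test at an adjusted p under 0.05, and is called when its absolute log2 fold change is also over 0.5. At day 1, 3 of the 10 passed, Ccnd1, Ccnd2 and Cdk6, all higher in siPRMT1, against 7.60% of the 13689 genes tested. Cdk6 alone was called, 1 of 10, against 3.56% of all genes, and its call was kept in 1 of 6 omissions of a library and in 3 of 10 other alternatives. At day 3, 3 of the 10 again passed, Ccnd1 and Cdkn2b higher and Cdkn2c lower, against 16.5% of 14039 genes, and Ccnd1 alone was called, against 6.65%. The median log2 fold change of the 10 was 0.13 at day 1 and 0.06 at day 3, beside 0.01 over all genes on both days. Fold changes are on TMM-normalized counts and differ slightly from ratios of FPKM, which is scaled by library totals.

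**Figure D2:**
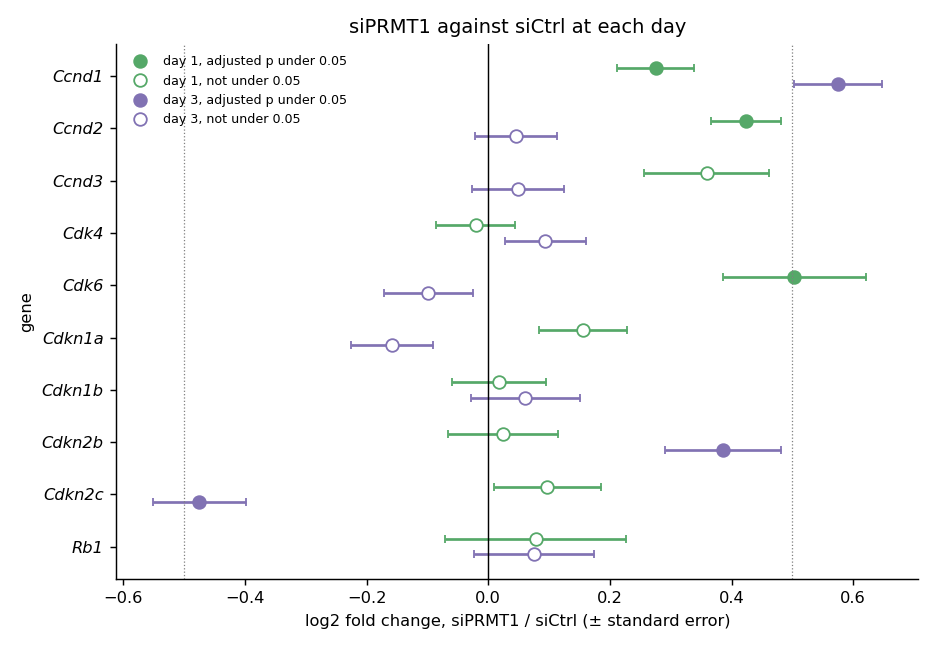
Log2 fold change of siPRMT1 over siCtrl (horizontal axis) for the 10 genes at day 1 and day 3, with standard errors as bars, filled points for an adjusted p under 0.05 and dotted lines at an absolute log2 fold change of 0.5. At day 1 all genes but Cdk4 lie right of 0, the D-type cyclins and Cdk6 furthest. Only Ccnd1 lies past the dotted line at day 3.

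Ccnd1 encodes cyclin D1, a cyclin that growth factors and Wnt signalling are known to induce. It stood at 42.4, 42.02 and 46.8 FPKM in siCtrl and at 54.9, 54.5 and 54.9 FPKM in siPRMT1 libraries of day 1. On day 3, siCtrl libraries held 40.8, 41.4 and 37.0 FPKM and the siPRMT1 libraries 55.3, 60.5 and 62.4 FPKM. Every siPRMT1 library was above every siCtrl library of its day. The log2 fold change at day 1 was 0.27 ± 0.06 (SE; adjusted p = 0.0375), a 1.21-fold rise. At day 3 it was 0.57 ± 0.07 (adjusted p = 7.5e-05), a 1.49-fold rise and the highest of the 10 genes. The call at day 3 was kept in all 6 fits that left out 1 library and in all 10 other alternatives with the fold change threshold, with log2 fold changes of 0.52 to 0.62. At day 1 the rise failed the test in 5 of 6 such omissions, each except that of siCtrl replicate 3, with an adjusted p of up to 0.174. The gene (chr7:144929931-144939937, minus strand) shares 1216 of its 3874 exon bases with Oraov1 on the other strand, and the sources used here do not say whether counting used strand. Oraov1 had 6007 counts over the 12 libraries beside 55850 for Ccnd1, and its own log2 fold change was -0.14 ± 0.08 at day 1 and 0.08 ± 0.10 at day 3.

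Ccnd2 encodes cyclin D2, and its difference was seen on day 1. The siCtrl libraries of day 1 held 61.6, 61.5 and 58.2 FPKM and the siPRMT1 libraries 83.1, 85.9 and 82.7 FPKM. At day 3 the values were 100.9, 99.5 and 95.0 FPKM in siCtrl and 99.0, 99.0 and 108 FPKM in siPRMT1. The groups were apart at day 1 and overlapped at day 3. The rise at day 1 was 0.42 ± 0.06 on the log2 scale (adjusted p = 0.00634), and the difference at day 3 was 0.05 ± 0.07 (adjusted p = 0.689). Without any 1 of the siPRMT1 libraries of day 1, replicates 1, 2 and 3 in turn, the adjusted p of the rise was 0.0575, 0.0623 and 0.0515.

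Ccnd3 encodes cyclin D3, which is known to be induced in adipocyte differentiation, and it was the D-type cyclin with the highest level in all 12 libraries. Its day 1 values were 98.5, 105 and 133 FPKM in siCtrl and 147, 145 and 154 FPKM in siPRMT1 libraries. At day 3 they were 113, 119.6 and 108 FPKM in siCtrl and 106, 123.5 and 124 FPKM in siPRMT1. The siCtrl library of 133 FPKM was replicate 3, and the groups of day 1 did not overlap even with it. The log2 fold change at day 1 was 0.36 ± 0.10 with an adjusted p of 0.0722, so it did not pass. Without siCtrl replicate 3 it was 0.49 with an adjusted p of 5.4e-05, and it also passed in 4 of the 10 other alternatives, among them DESeq2 (adjusted p = 0.0364) and a joint model of the 12 libraries (0.0442). At day 3 the log2 fold change was 0.05 ± 0.08 (adjusted p = 0.696). Ccnd3 (chr17:47505051-47599689, plus strand) shares 359 of 2497 exon bases with Bysl on the other strand, which had 34407 counts beside 88787. Bysl had a log2 fold change of 0.42 ± 0.08 at day 1 (adjusted p = 0.0225) and -0.20 ± 0.07 at day 3, and the part of its reads in the Ccnd3 values was not tested.

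Added together, the D-type cyclins held 203, 209 and 238 FPKM in siCtrl and 285, 286 and 292 FPKM in siPRMT1 libraries of day 1. Day 3 sums were 255, 260.5 and 239.9 FPKM in siCtrl and 260.4, 283 and 295 FPKM in siPRMT1. The groups of day 1 were apart and those of day 3 overlapped. Ccnd1 RNA made up 20.2 ± 0.6% (SD, n = 3) of the sum in siCtrl and 19.1 ± 0.2% in siPRMT1 libraries of day 1. By day 3 its share was 15.8 ± 0.3% in siCtrl and 21.3 ± 0.1% in siPRMT1 cells. Ccnd2 went from 28.1 ± 3.2% of the sum at day 1 to 39.2 ± 0.8% at day 3 in siCtrl cells, and from 29.2 ± 0.9% to 36.6 ± 1.5% in siPRMT1 cells.

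**Figure D3:**
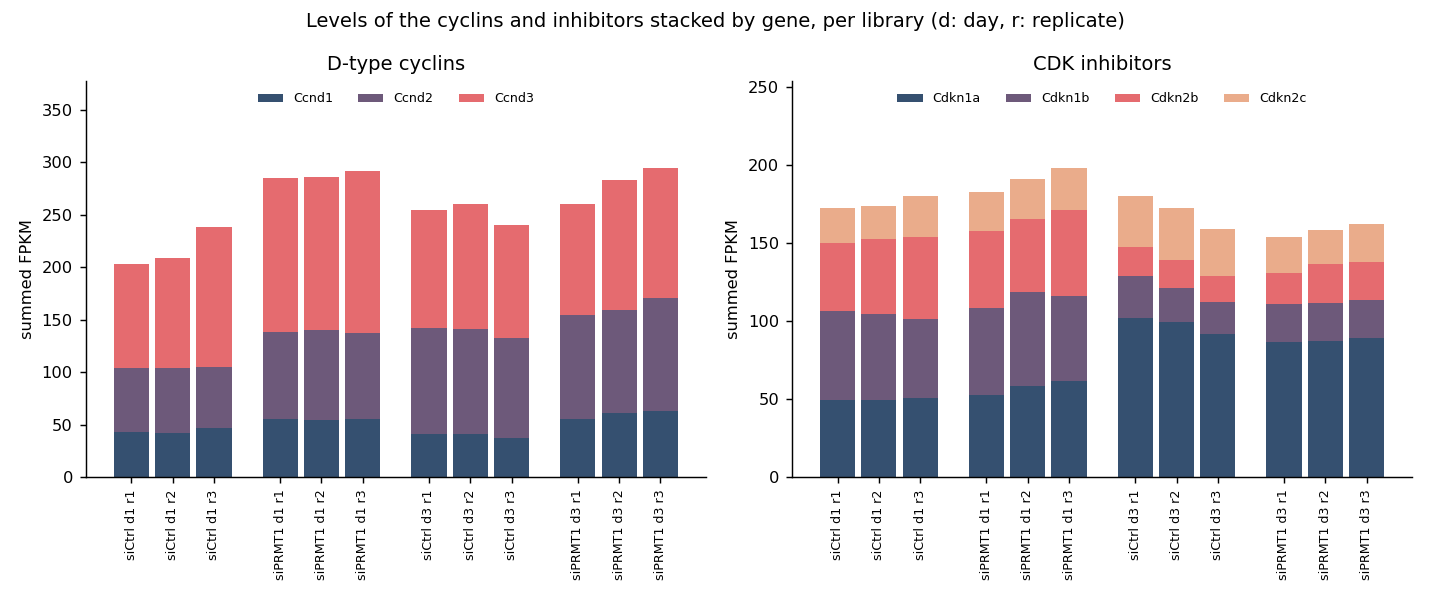
Summed FPKM (vertical axes, from 0) of the D-type cyclins (left) and of the 4 CDK inhibitors (right) in each of the 12 libraries, stacked by gene. The second copy of Cdkn1a is not in the stacks. The cyclin stacks of siPRMT1 day 1 all exceed those of siCtrl day 1, and the inhibitor stacks pass from a mixture led by Cdkn1a, Cdkn1b and Cdkn2b at day 1 to one led by Cdkn1a at day 3.

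The partner kinases differed from each other in their response. Cdk4 had a log2 fold change of -0.02 ± 0.07 at day 1 (adjusted p = 0.887) and 0.09 ± 0.07 at day 3 (adjusted p = 0.362), with overlapping groups on both days. Cdk6 stood at 5.47, 5.07 and 4.02 FPKM in siCtrl and at 6.96, 7.49 and 6.97 FPKM in siPRMT1 libraries of day 1. Its day 3 values were 7.95, 7.39 and 7.37 FPKM in siCtrl and 7.27, 6.60 and 7.42 FPKM in siPRMT1 libraries. The siCtrl libraries of day 1 were thus below the other 9 libraries. The rise at day 1 was 0.50 ± 0.12 on the log2 scale (adjusted p = 0.0386), next to the threshold for a call, and the difference at day 3 was -0.10 ± 0.07 (adjusted p = 0.384). The lowest value was again siCtrl replicate 3, and without it the rise was 0.38 with an adjusted p of 0.00102. The test was passed in 2 of the 6 omissions at day 1, those of siCtrl replicates 1 and 3, and the adjusted p reached 0.157 in the others. Only the omission of siCtrl replicate 1 also kept the call.

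Among the inhibitors, Cdkn2c and Cdkn2b moved in opposite directions at day 3. Cdkn2c encodes p18, and it held 22.0, 21.7 and 26.2 FPKM in siCtrl and 24.8, 25.5 and 26.9 FPKM in siPRMT1 libraries of day 1. At day 3 the values were 32.8, 33.3 and 30.0 FPKM in siCtrl and 22.8, 22.2 and 24.4 FPKM in siPRMT1. The groups overlapped at day 1 and were well apart at day 3. Cdkn2c fell by 0.47 ± 0.08 on the log2 scale at day 3 (adjusted p = 5.8e-04), to 0.719 of the siCtrl level, and the test was passed in all 6 omissions and all 10 other alternatives. Without siCtrl replicate 3 or siPRMT1 replicate 3 it was also called, at -0.52 each. Its difference at day 1 was 0.10 ± 0.09 (adjusted p = 0.551), and without siCtrl replicate 3 it was 0.18 with an adjusted p of 0.0413.

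Cdkn2b encodes p15, an inhibitor known to be induced by TGF-beta. At day 1 it held 44.0, 47.7 and 52.7 FPKM in siCtrl and 49.1, 47.3 and 55.5 FPKM in siPRMT1 libraries. By day 3, siCtrl libraries held 18.7, 17.5 and 16.8 FPKM and the siPRMT1 libraries 19.8, 24.8 and 24.9 FPKM. The groups overlapped at day 1 and not at day 3, where siPRMT1 replicate 1 lay close to the siCtrl libraries. The rise at day 3 was 0.39 ± 0.10 (adjusted p = 0.0124), and the difference at day 1 was 0.02 ± 0.09 (adjusted p = 0.904). The test at day 3 was not passed without siCtrl replicate 3 (adjusted p = 0.0570), siPRMT1 replicate 2 (0.0689) or siPRMT1 replicate 3 (0.0550).

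Neither CIP/KIP inhibitor passed the test under knockdown. Cdkn1a, the p21 gene and a well-known target of p53, held 49.5, 49.6 and 50.5 FPKM in siCtrl and 52.8, 58.3 and 61.6 FPKM in siPRMT1 libraries of day 1. At day 3 it held 102, 99.1 and 91.8 FPKM in siCtrl and 86.8, 87.4 and 89.3 FPKM in siPRMT1. The siPRMT1 libraries were above the siCtrl libraries on day 1 and beneath them on day 3, by log2 fold changes of 0.16 ± 0.07 (adjusted p = 0.228) and -0.16 ± 0.07 (adjusted p = 0.121). Cdkn1a is the only one of the 10 genes with a second copy in the table, on an alternate scaffold, and that copy held 22.1% to 26.5% of the counts of both in each library. With the copies summed, the log2 fold changes were 0.14 and -0.13. Cdkn1b, the p27 gene, had log2 fold changes of 0.02 ± 0.08 at day 1 (adjusted p = 0.920) and 0.06 ± 0.09 at day 3 (adjusted p = 0.683), with overlapping groups on both days.

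Rb1, whose protein the kinases phosphorylate, held 5.93, 5.15 and 4.07 FPKM in siCtrl and 5.58, 6.12 and 4.94 FPKM in siPRMT1 libraries of day 1. At day 3 the values were 8.62, 6.51 and 6.71 FPKM and 8.08, 7.64 and 7.38 FPKM in the same order. The groups overlapped on both days, and the log2 fold changes of 0.08 ± 0.15 and 0.07 ± 0.10 did not pass (adjusted p = 0.799 and 0.644). Rb1 (chr14:73194453-73325885, minus strand) spans Lpar6 on the other strand without shared exon bases.

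Whether the effect of knockdown differed between the days was tested by the interaction of siRNA and day over the 12 libraries. The interaction passed for 4 of the 10 genes, against 12.3% of 14612 genes, and 2 of the 10 were called, Cdk6 and Cdkn2c, against 8.24%. The effect at day 3 minus that at day 1 was -0.58 ± 0.13 on the log2 scale for Cdk6 (adjusted p = 0.0111). It was -0.55 ± 0.12 for Cdkn2c (adjusted p = 0.00923) and -0.36 ± 0.08 for Ccnd2 (adjusted p = 0.00977). For these 3 genes the test was passed in each of the 12 omissions of 1 library and in the 9 other alternatives, although Cdk6 without siCtrl day 1 replicate 3 stood at -0.50, just under the threshold for a call. The effect on Ccnd1 was greater at day 3 by 0.32 ± 0.10 (adjusted p = 0.0489), and it passed in 1 of the 12 omissions, that of siPRMT1 day 3 replicate 1, with an adjusted p of up to 0.115 in the others, and in 2 of 9 other alternatives. The interaction did not pass for Cdkn1a (-0.29 ± 0.09, adjusted p = 0.0559), Cdkn2b (0.38 ± 0.14, 0.0954) or Ccnd3 (-0.29 ± 0.14, 0.207). Without siCtrl day 1 replicate 3, that of Ccnd3 was -0.46 with an adjusted p of 0.00330 and that of Cdkn1a -0.33 with an adjusted p of 0.0144. That of Cdkn1a also passed without siPRMT1 day 1 replicate 1 (0.0434) or siCtrl day 3 replicate 3 (0.0422) and in 6 of 9 other alternatives, and that of Cdkn2b without siPRMT1 day 3 replicate 1 (0.0403). The interactions of Cdk4, Cdkn1b and Rb1 were 0.14 ± 0.09, 0.06 ± 0.12 and 0.02 ± 0.19.

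The remaining comparisons followed the genes from day 1 to day 3, separately in siCtrl and in siPRMT1 cells. In siCtrl cells 7 of the 10 passed the test, against 58.9% of 13829 genes, and 5 were called, against 43.2%. In siPRMT1 cells 7 of the 10 passed, against 63.4% of 14224 genes, and 3 were called, against 36.5%. Cdkn1a, Cdkn1b and Cdkn2b were called in both. These comparisons use the same libraries as the knockdown comparisons, and each gene's values are therefore given side by side rather than correlated.

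**Figure D4:**
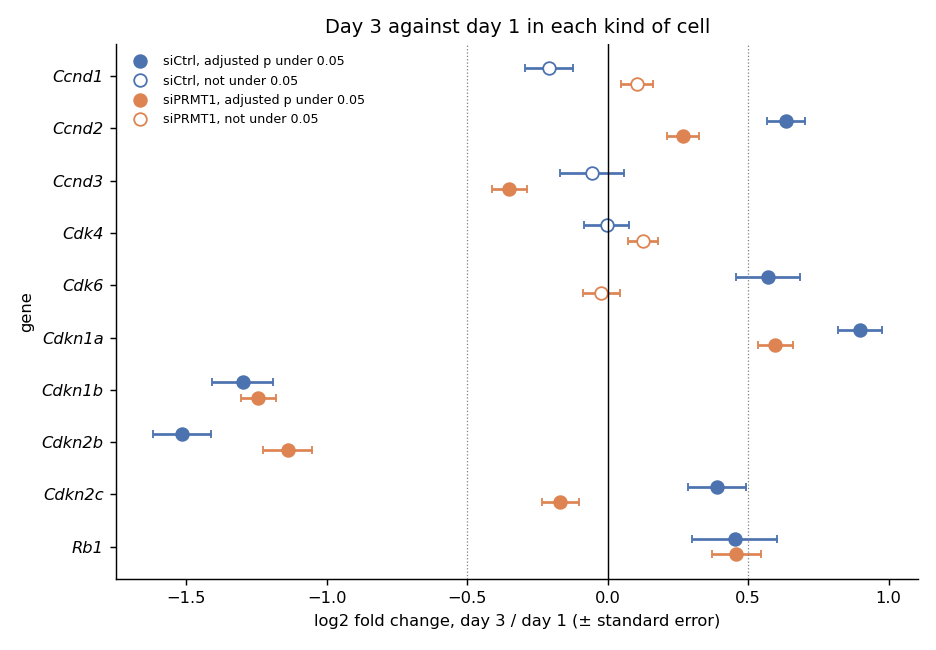
Log2 fold change of day 3 over day 1 (horizontal axis) for the 10 genes in siCtrl and siPRMT1 cells, with standard errors as bars, filled points for an adjusted p under 0.05 and dotted lines at an absolute log2 fold change of 0.5. Cdkn1b and Cdkn2b lie far left and Cdkn1a right of 0 in both, while Cdk6 and Cdkn2c lie apart between the siRNAs.

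Cdkn1b and Cdkn2b had the greatest changes of the 10 genes. Cdkn1b held 56.8, 55.2 and 50.7 FPKM in siCtrl libraries of day 1 and 26.8, 22.4 and 20.3 FPKM in those of day 3. In siPRMT1 libraries it held 55.9, 60.2 and 54.3 FPKM at day 1 and 24.3, 24.3 and 24.0 FPKM at day 3. The days did not overlap under either siRNA. The log2 fold change of Cdkn1b was -1.30 ± 0.11 in siCtrl (adjusted p = 4.9e-06) and -1.24 ± 0.06 in siPRMT1 cells (adjusted p = 9.0e-10). Cdkn2b, with the library values given above, was at -1.52 ± 0.10 (adjusted p = 1.2e-06) and -1.14 ± 0.09 (adjusted p = 7.1e-08), a fall to 0.35 and 0.454 of the day 1 level.

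Cdkn1a moved the other way. It rose by 0.90 ± 0.08 on the log2 scale in siCtrl cells (1.86-fold, adjusted p = 6.3e-06) and by 0.60 ± 0.06 in siPRMT1 cells (1.51-fold, adjusted p = 1.5e-06). With its second copy summed, the rises were 0.86 and 0.59. All day 3 libraries were above all day 1 libraries for this gene. The 4 inhibitors together held 172 to 180.0 FPKM in siCtrl and 183 to 198 FPKM in siPRMT1 libraries of day 1, and 159 to 180.3 and 154 to 163 FPKM at day 3. Within that sum, Cdkn1a went from 28.4 ± 0.4% to 57.3 ± 0.6% of the sum in siCtrl and from 30.1 ± 1.1% to 55.5 ± 0.8% in siPRMT1 cells (SD, n = 3). Cdkn1b went from 30.9 ± 2.5% to 13.5 ± 1.1% and Cdkn2b from 27.4 ± 1.8% to 10.4 ± 0.2% in siCtrl cells. These sums and shares leave out the second copy of Cdkn1a. That copy averaged 16.6 and 29.0 FPKM in siCtrl and 19.0 and 28.5 FPKM in siPRMT1 libraries of day 1 and day 3. With it, the sums and the share of Cdkn1a would be higher and the shares of the other inhibitors lower.

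The last inhibitor, Cdkn2c, changed in opposite directions under the 2 siRNAs. It rose by 0.39 ± 0.10 in siCtrl (adjusted p = 0.00882) and fell by 0.17 ± 0.07 in siPRMT1 cells (adjusted p = 0.0371). The contrast between them is the interaction given above. Each change was lost to single omissions: the rise had an adjusted p of 0.0567 without siCtrl day 1 replicate 2 and 0.0513 without siCtrl day 3 replicate 2. The fall was passed in 2 of 6 omissions, and its adjusted p was highest, at 0.154, without siPRMT1 day 3 replicate 2. It was also lost without siPRMT1 day 1 replicates 1 (0.0549), 2 (0.0642) and 3 (0.110).

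Ccnd2 and Cdk6 rose in siCtrl cells, Cdk6 to values that overlapped those of the siPRMT1 libraries of day 1. The rise of Ccnd2 was 0.63 ± 0.07 in siCtrl (adjusted p = 2.3e-05) and 0.27 ± 0.06 in siPRMT1 cells (adjusted p = 8.5e-04). Cdk6 rose by 0.57 ± 0.11 in siCtrl cells (adjusted p = 0.00173) and had a log2 fold change of -0.02 ± 0.07 in siPRMT1 cells (adjusted p = 0.792). Without siCtrl day 1 replicate 3 or without siCtrl day 3 replicate 1, the rise of Cdk6 was 0.44 and 0.50, under the threshold for a call, and it still passed the test.

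Ccnd3 fell by 0.35 ± 0.06 in siPRMT1 cells (adjusted p = 2.7e-04) and had a log2 fold change of -0.06 ± 0.11 in siCtrl cells (adjusted p = 0.693). Bysl, which overlaps it, rose by 0.68 ± 0.06 in siPRMT1 and 1.28 ± 0.09 in siCtrl cells. Ccnd1 was at -0.21 ± 0.09 in siCtrl (adjusted p = 0.0587) and 0.10 ± 0.06 in siPRMT1 cells (adjusted p = 0.125), and without siCtrl day 3 replicate 2 the former was -0.30 with an adjusted p of 0.0270. Cdk4 was at -0.00 ± 0.08 and 0.13 ± 0.05 (adjusted p = 0.973 and 0.0554). Without siPRMT1 day 3 replicate 1, Ccnd1 (adjusted p = 0.0181) and Cdk4 (0.0136) passed in siPRMT1 cells. Rb1 rose by 0.45 ± 0.15 in siCtrl (adjusted p = 0.0267) and 0.46 ± 0.09 in siPRMT1 cells (adjusted p = 3.9e-04). In siCtrl cells the rise of Rb1 passed in 2 of 6 omissions, and without siCtrl day 3 replicate 1, which had the highest value, it was 0.28 with an adjusted p of 0.199. It was also lost without siCtrl day 1 replicate 2 (adjusted p = 0.0661), day 3 replicate 2 (0.0714) and day 3 replicate 3 (0.0780). It was called without siCtrl day 1 replicate 1, at 0.57, and in siPRMT1 cells without siPRMT1 day 1 replicate 2, at 0.54.

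The course over the 12 libraries was compared with that of 9325 genes averaging 10 CPM or more, as Pearson's r of log2 CPM. The libraries fall into 4 groups that share days and siRNAs, so these values describe likeness only. The nearest gene to Cdkn1b was Ccna2, the cyclin A gene (r = 0.997), that to Cdkn2b was Aebp1 (0.997) and that to Cdkn1a was Tgfb2 (0.992). Ccnd3 was nearest to Trp53, the p53 gene (0.971), Rb1 to Kpna1 (0.973), Cdk6 to Clcn3 (0.972) and Ccnd2 to Larp1 (0.968). Cdkn2c was nearest to Limk1 (0.933), Ccnd1 to Atp10a (0.931) and Cdk4 to Maea (0.931). Within the 10 genes, Cdkn1b and Cdkn2b were most alike (r = 0.962), and Cdkn1a ran opposite to both (r = -0.961 with each).

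Other genes of the pathway were counted from lists of 28 further regulators of G1 and S phase, 20 E2F target genes and 16 genes of the p53 group. Of the 27 regulators tested, 2 were called higher at day 1 of knockdown, against 1.95% of all genes called higher: E2f2 (0.59 ± 0.14, adjusted p = 0.0418) and Skp2 (0.71 ± 0.16, adjusted p = 0.0356), and none was called lower by edgeR, DESeq2 or limma, with 1 lower at an unadjusted p under 0.05. DESeq2 called 1 of the 27 higher and limma 0, but limma used a minimum mean of 1 FPKM, so it did not test Skp2. E2f2 encodes an activating E2F and Skp2 a subunit of the ubiquitin ligase for p27. Both were low at day 1, at means of 0.87 and 0.503 FPKM in siCtrl cells. The log2 fold change at day 1 was above 0 for 24 of the 27 and below 0 for 3, while 48.3% of all genes were below 0. The median was 0.15 beside 0.01 over all genes. In edgeR 3 of the 27 passed the test upwards at day 1, against 3.22% of all genes, and 9 were higher at an unadjusted p under 0.05. The share of all genes at an unadjusted p under 0.05 was not computed for any of the list counts, so these counts have no background beside them. At day 3 none of the 27 was called under knockdown by edgeR, DESeq2 or limma, and the median was 0.04. In edgeR 2 passed the test upwards and 1 downwards there, against 7.54% and 8.94% of all genes, and 4 and 2 had an unadjusted p under 0.05. Ccne1, the cyclin E1 gene that acts after the D-type cyclins, passed at day 1 (0.44 ± 0.09, adjusted p = 0.0233) and not at day 3 (-0.05 ± 0.08, adjusted p = 0.671). Among other inhibitors, Cdkn2a had 97.6 to 160.0 FPKM and Cdkn2d 9.55 to 27.5 FPKM over the 12 libraries, and neither passed under knockdown. Cdkn1c, at 0 to 3 counts per library, was not tested.

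From day 1 to day 3 in siCtrl cells, 7 of the 27 regulators were called higher and 3 lower, against 22.7% and 20.4% of all genes, with a median log2 fold change of 0.02. Together 10 of the 27 were called, a share under the 43.2% of all genes. Ccne1 (1.02 ± 0.11) and E2f2 (1.504 ± 0.14) rose, and Rbl1 (-1.05 ± 0.12) and Rbl2 (-1.04 ± 0.08), the relatives of Rb1, fell. In siPRMT1 cells 5 were called higher and 5 lower, against 19.0% and 17.4% of all genes, and their joint share was near the 36.5% of all genes. The interaction was called for 1 of the 27, against 8.24% of all genes, E2f2, at -0.88 ± 0.16 (adjusted p = 0.00308).

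None of the 20 E2F targets was called under knockdown by edgeR, DESeq2 or limma. In edgeR 2 passed the test downwards at day 1, against 4.38% of all genes, and 3 had an unadjusted p under 0.05 there, all lower. These 2 were Ccnb1 (-0.27 ± 0.06, adjusted p = 0.0411) and Cdk1 (-0.26 ± 0.06, adjusted p = 0.0455). At day 3 they were at 0.12 ± 0.08 and 0.19 ± 0.09, and neither passed. At day 3, 1 passed upwards and 1 downwards, against 7.54% and 8.94% of all genes, and 3 and 1 had an unadjusted p under 0.05. Their medians were 0.01 at day 1 and 0.09 at day 3, beside 0.01 over all genes on both days. From day 1 to day 3, 10 of the 20 were called lower in siCtrl and 7 in siPRMT1 cells, against 20.4% and 17.4% of all genes called lower and 43.2% and 36.5% called in either direction. None was called higher by edgeR, DESeq2 or limma. In siPRMT1 cells 2 passed the test upwards, against 32.2% of all genes. At an unadjusted p under 0.05, 1 and 2 were higher in siCtrl and siPRMT1 cells. The medians were -0.42 and -0.41. Top2a, a topoisomerase of dividing cells, fell by 2.11 ± 0.11 in siCtrl cells, from 203 ± 31 to 49.2 ± 3.8 FPKM (SD, n = 3). The mitotic genes Ccnb1 (-1.24 ± 0.09) and Cdk1 (-1.13 ± 0.10) fell there too, as did Ccna2 (-0.89 ± 0.09). Ccna2 had log2 fold changes of -0.01 ± 0.08 and 0.04 ± 0.07 under knockdown at day 1 and day 3. The interaction passed upwards for 4 of the 20 and downwards for 0, against 7.69% and 4.63% of all genes, and none was called. Among the 4 were Ccnb1 (0.41 ± 0.11, adjusted p = 0.0291) and Cdk1 (0.47 ± 0.12, adjusted p = 0.0215).

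Of the 14 tested genes of the p53 group (Pmaip1 and Perp were not tested), 2 were called higher at day 1 of knockdown, against 1.95% of all genes, and limma called 1 higher. These 2 were Sesn2, a stress-induced gene (0.56 ± 0.10, adjusted p = 0.0147), and Gdf15 (1.60 ± 0.27, adjusted p = 0.0143), the latter from 0.327 to 0.973 FPKM. Gdf15 was thus under limma's minimum mean of 1 FPKM and was not tested by limma. At day 3, 1 was called higher, Eda2r (0.77 ± 0.13, adjusted p = 8.7e-04), against 2.84% of all genes, and none was called lower on either day by edgeR, DESeq2 or limma. Sesn1 passed the test downwards at day 1 (-0.33 ± 0.08, adjusted p = 0.0414), short of the fold change for a call. Of the 14, 2 were lower at an unadjusted p under 0.05 at day 1 and 0 at day 3, and 6 were higher on each day. On each day 3 passed the test upwards, against 3.22% of all genes at day 1 and 7.54% at day 3. The interaction was called for 1 upwards, Sesn1 (0.58 ± 0.11), and 2 downwards, Sesn2 (-0.67 ± 0.13) and Gdf15 (-1.86 ± 0.39), against 4.77% and 3.47% of all genes. Of these limma called 0 upwards and 1 downwards, and it did not test Gdf15, whose mean over the 12 libraries was also under 1 FPKM. At day 3 of knockdown Sesn2 was at -0.13 ± 0.08 and Gdf15 at -0.27 ± 0.25, and neither passed. Trp53 itself was at 0.30 ± 0.09 (adjusted p = 0.0793) and 0.08 ± 0.07 (adjusted p = 0.459). The medians of the group were 0.23 at day 1 and 0.13 at day 3, beside 0.01 over all genes on both days. From day 1 to day 3 in siCtrl cells, Bbc3 (1.15 ± 0.16), Gdf15 (1.70 ± 0.29) and Aen (0.76 ± 0.10) were called higher and Sesn1 (-0.69 ± 0.09) lower, 4 of 14, against 43.2% of all genes.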

How the data were processed

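mRNA of 12 libraries (3 for each siRNA and day) had been sequenced. The authors filtered reads with cutadapt (1.11) and aligned them with HISAT2 (2.1.0). Per the labels they also used RSEM (1.2.6), in a role that the sources used here do not give. The counting tool, its strand setting and its treatment of reads with several matches are not given in the sources used here. The count table deposited by the authors holds whole-number counts per RefSeq gene on GRCm38 without normalization. The FPKM values deposited by the authors equal counts divided by gene length and library total, within 0.005. Depth was 15116462 to 42357137 counts, and the 10 genes had 369 to 16948 counts per library.

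edgeR (4.0.16; TMM, filterByExpr, quasi-likelihood test, Benjamini-Hochberg over all genes tested) compared siPRMT1 with siCtrl within each day, day 3 with day 1 within each siRNA, and the effects between days (interaction, 12 libraries). Standard errors were taken from the F statistic (log2 fold change over the root of F). Calls required both an adjusted p below 0.05 and a log2 fold change beyond 0.5 in either direction. Alternatives were DESeq2 (1.42.0), limma (3.58.1) on log2(FPKM + 1) with and without a minimum mean of 1 FPKM and on log2(FPKM + 0.1), RLE scaling, other count filters, the replicate block, all libraries in 1 model, no fold change threshold and each library left out. Adding the second copies of genes was chosen after seeing the data. Named from each list were up to 4 called genes with the smallest p in the knockdown comparisons and in siCtrl over time, besides Ccne1, Ccna2, Cdkn1c, Trp53, Sesn2, Prmt1 and the gene nearest in pattern to each of the 10. Cdkn2a, Cdkn2d, Oraov1, Bysl and Lpar6 were named after their values were seen. The 10 genes and the lists were chosen with earlier results of these data known. The tests were checked on simulated data. Promoter windows come from RefSeq tables, and each motif was searched on both strands.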

Additional observations from a re-analysis of the deposited data

Results flagged for a closer look

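Each group held 3 libraries, too few for a search for outlying libraries. A difference in the effect of knockdown between the days was tested by the interaction of siRNA and day in edgeR. It passed for 4 of the 10 genes, against 12.3% of 14612 genes. The effect at day 3 minus that at day 1 was 0.32 on the log2 scale for Ccnd1, with effects of 0.27 and 0.57, and it passed the test in only 1 of 12 omissions of a library and 2 of 9 other alternatives. It was -0.36 for Ccnd2, with effects of 0.42 and 0.05, and -0.58 for Cdk6, with effects of 0.50 and -0.10. It was -0.55 for Cdkn2c, with effects of 0.10 and -0.47. The adjusted p-values were 0.0489, 0.00977, 0.0111 and 0.00923. Summed adipocyte markers were lower in siPRMT1 libraries on both days, and their part in these differences was not tested.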

How the results depend on the processing

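Of 265 recomputed counts, 222 stayed within 1.5 times the reported one, and of 850 recomputed log2 fold changes of the 10 genes, 793 kept their direction and their call. At day 1 of knockdown, 0 of the 10 genes were called with DESeq2, without a filter, with at least 10 counts in every library, with 12 libraries in 1 model, with limma on log2(FPKM + 1) with or without a filter, and with second copies added, and 1 passed the test with limma and no filter. Without a fold change threshold the genes called among the 10 were 3 and 3 under knockdown, 7 in siPRMT1 cells over time and 4 in the interaction. Leaving out 1 library gave 0 to 1 calls among the 10 at day 1, 1 to 2 at day 3, 4 to 6 over time in siCtrl, 3 to 4 in siPRMT1 and 1 to 2 in the interaction, and 0 to 5, 2 to 3, 5 to 7, 6 to 9 and 3 to 5 passed the test. All genes called were then 123 to 873, 781 to 964, 5675 to 6638, 5167 to 5275 and 813 to 1907. At day 1 the 873 arose without siCtrl replicate 3, as did the 1907 in the interaction, and the counts without siCtrl replicate 2 and siPRMT1 replicates 1, 2 and 3 were 185, 179, 177 and 123.

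Without a threshold, 1040 and 2313 genes were called under knockdown at day 1 and day 3 and 9014 in siPRMT1 cells over time. With limma on log2(FPKM + 1), 246 and 388 were called under knockdown, 3964 in siCtrl and 3144 in siPRMT1 cells over time, and with no filter 153, 342, 3432 in siPRMT1 cells and 706 in the interaction. With a pseudocount of 0.1, 569 were called at day 3.

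Signs turned only for differences near 0. With limma, Cdk4 was at 0.03 at day 1 of knockdown with each pseudocount and filter, Ccnd3 at 0.03 and Cdk4 at 0.07 over time in siCtrl cells, and the interaction of Rb1 at -0.04 or, with a pseudocount of 0.1, -0.05. With 12 libraries in 1 model, Cdkn1b was at -0.01 and Cdkn2b at -0.01 at day 1, and with second copies Cdkn1b was at -0.00. With at least 10 counts in every library, Cdk4 was at 0.01 over time in siCtrl and the interaction of Rb1 at -0.00. Leaving out 1 library gave ranges across 0 at day 1 for Cdk4 (-0.06 to 0.03), Cdkn1b (-0.05 to 0.06), Cdkn2b (-0.05 to 0.09) and Rb1 (-0.06 to 0.22), and at day 3 for Ccnd2 (-0.01 to 0.07) and Cdkn1b (-0.03 to 0.16). It did so over time in siCtrl cells for Ccnd3 (-0.16 to 0.08) and Cdk4 (-0.08 to 0.05), in siPRMT1 cells for Cdk6 (-0.06 to 0.03), and in the interaction for Cdkn1b (-0.03 to 0.17) and Rb1 (-0.12 to 0.15). The cause was not tested.

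Whether replicate numbers pair the libraries is not given in the sources used here. Same-numbered libraries deviated from their group means together with correlations of -0.17 to 0.49 under knockdown and -0.42 to 0.49 over time. Not every library correlated best with its own number. Deviations sum to 0 within each group of 3, so these correlations cannot decide the question. With the replicate block, 1, 1, 5, 3 and 2 of the 10 genes were called in the 5 comparisons, as without it, and 536, 974, 5929, 5193 and 1277 of all genes. With it, the adjusted p at day 1 was 0.0523 for Ccnd1 and 0.0307 for Ccnd3, that of Cdkn2c over time in siPRMT1 cells was 0.0670, and that of the interaction of Ccnd1 was 0.0555.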
